A study of Drosophila melanogaster with 2 samples.

Results

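The 42 cell cycle genes described here were chosen by name, as the cyclins, their kinases and the proteins that start S-phase or carry out mitosis, and all 42 were found among the 15902 features of the table. They held 745331 of its 243468253 unique molecular identifiers (UMIs, random tags that let each captured RNA molecule be counted once). Brains with attached eye discs of *Drosophila* larvae were dissociated and their single cells sequenced, after growth for 120 h at 25 °C. The labels give 1 library of *mirr>ND-42 RNAi BL28894*, in which a subunit of mitochondrial complex I is silenced, and 1 library of the control *mirr>OreR*. In both, the *mirr* driver is active in the dorsal compartment of the eye disc, and its activity in the other cells of the sample is not given in the sources used here. The 2 deposited tables were identical and shared all 33552 cell barcodes. All barcodes were distinct and carried 1 suffix. Their number is not the cell number that the study gives for either genotype. The table was treated as 1 library whose genotype is not known, and whether it pools both genotypes was not tested. No genotype was compared with another, and no p-value was computed.

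The cell cycle is driven by cyclins bound to cyclin-dependent kinases (Cdks). CycD with Cdk4 and CycE with Cdk2 act in G1 and at the start of S-phase, while CycA, CycB and CycB3 with Cdk1 act up to and in mitosis, after the phosphatase encoded by *stg* (Cdc25) has activated Cdk1. The activating factor E2f1 turns on genes of DNA replication, E2f2 represses, *dap* encodes an inhibitor of CycE-Cdk2, and *fzr* and *fzy* encode activators of the anaphase-promoting complex (APC), which marks cyclins for destruction. In the eye disc, undifferentiated progenitors divide without synchrony ahead of the morphogenetic furrow, arrest in G1 within it, and then either differentiate or pass through 1 further round of division. In the brain, neuroblasts divide repeatedly and bud off ganglion mother cells, which divide once into neurons.

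Cells were assigned to 9 classes by UMIs of genes that are not among the 42. Eye progenitors had *Optix* and *eya*, furrow cells *ato* and *eya*, photoreceptors *gl* and *elav*, neuroblasts *wor* and *mira*, glia *repo*, and hemocytes *Hml* and *NimC1*. The other classes were *gl*-positive *elav*-negative cells, antennal cells with *Dll* and without *elav*, and *insb*-positive *wor*-negative cells, a gate for ganglion mother cells and young neurons. These gates were not exclusive. Of the 33552 cells, 22418 fell in no class, 9387 in 1 class and 1747 in 2 or more, and 271 of the 439 furrow cells (61.7%) were also eye progenitors. Cells in both classes of a comparison were therefore left out of it, and each comparison was repeated with cells of 1 class only. In those cells, marker genes outside the gates summed highest in the named class for furrow, photoreceptor, antennal, neuroblast, *insb*-positive, glial and hemocyte lists. Of single antennal markers, only 1 of 7 was highest in antennal cells, and 3 were highest in furrow cells. Of photoreceptor markers, 2 of 6 were highest in photoreceptors and 2 in *insb*-positive cells. The number highest in the own class was 4 of 6 for furrow, neuroblast and glial lists, 4 of 5 for *insb*-positive cells and 6 of 6 for hemocytes. In all cells of a class the photoreceptor list was highest in *insb*-positive cells (2.52), against 2.46 in photoreceptors. The remaining lists did not sum highest in their own class among cells of 1 class only. That of eye progenitors (*so*, *toy*, *ey*, *hth*, *tsh* and *tio*) came to 15.1 UMIs per 10000 UMIs in eye progenitors, against 25.7 in antennal cells. Of these 6 markers, 1 was highest in eye progenitors, and 0 were in all cells of a class. The neuroblast list came to 39.8 in eye progenitors of 1 class only, the second highest after neuroblasts (64.0). That of *gl*-positive *elav*-negative cells came to 1.70 in its own class, against 1.85 in both photoreceptors and furrow cells. The class names stand for these gates in what follows.

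The members fall into 6 roles. *CycD*, *Cdk4*, *CycE* and *Cdk2* are the 4 cyclins and kinases of G1 and S. *CycA*, *CycB*, *CycB3*, *Cdk1*, *stg*, *Cks30A*, *Cks85A*, *polo*, *aurA* and *aurB* are the 10 cyclins, kinases, kinase subunits and the phosphatase of G2 and M, and *E2f1* and *E2f2* are the E2F factors. *PCNA*, *RnrS*, *RnrL*, *Claspin*, *Mcm2*, *Mcm3*, *Mcm5*, *Mcm6*, *Mcm7*, *dup* and *Orc1* are the 11 S-phase genes. *dap*, *fzr*, *fzy* and *geminin*, whose product blocks the *dup* protein, are the inhibitors and APC activators. *BubR1*, *Bub1*, *pav*, *tum*, *feo*, *borr*, *Incenp*, *ncd*, *Klp61F*, *pim* and *thr* are the 11 mitotic genes, of the spindle checkpoint, the central spindle, the chromosomal passenger complex, spindle motors, and securin and separase. They are spread over the genome, with 10 on 2L, 12 on 2R, 6 on 3L, 9 on 3R and 5 on X.

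The cells held 500 to 333220 UMIs, with a median of 4092. The 1009 cells over 30000 UMIs held 21.5% of all UMIs, and 68.9% of those of furrow cells, 55.5% of those of eye progenitors and 51.8% of those of neuroblasts, against 11.4% of those of *gl*-positive *elav*-negative cells. Scrublet called 12.8% of all cells as doublets, with 27.7% of photoreceptors, 22.6% of eye progenitors, 21.6% of furrow cells and 21.1% of neuroblasts at the high end, and the comparisons were repeated without them. A level is the summed UMIs of a gene per 10000 UMIs of a class, and its 95% interval, like that of a ratio, covers counting error only and not the spread between animals or libraries. A lower level can come from fewer cells that transcribe the gene or from less of its RNA in each of them. Since a level is a share of the UMIs of a class, it can also come from more RNA of other genes. Cells with many UMIs weigh more in a level.

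Neuroblasts held the highest level of most members. In all cells of the 9 classes, 36 of 42 members were highest there, 33 of them with an interval apart from that of the next class. In cells of 1 class only these numbers were 34 and 32. The share of all features that were highest in neuroblasts was not counted. *CycE* had 4.75 UMIs per 10000 in neuroblasts of 1 class only, against 0.0752 in hemocytes to 1.29 in *gl*-positive *elav*-negative cells in the other classes. *CycB3*, the third mitotic cyclin, had 1.86 in neuroblasts, while no other class passed 0.421. *dup*, which encodes the helicase loading factor Cdt1, had 1.46 in neuroblasts and at most 0.328 elsewhere. The other 8 members were highest elsewhere among cells of 1 class only. *CycD* was highest in furrow cells (0.947), followed by *gl*-positive *elav*-negative cells (0.582), and its partner *Cdk4* was also highest in furrow cells (0.379), although neither interval was apart from the next. *stg* was highest in furrow cells (8.54) and its interval was apart from that of the next class, *gl*-positive *elav*-negative cells (5.34). *dap* was highest in photoreceptors (3.37), followed by *insb*-positive cells (3.07), and *fzr* in *insb*-positive cells (0.535), followed by glia (0.341), both with intervals apart. *Cks85A*, one of a pair of small Cdk-binding subunits, *Bub1*, a kinase of the spindle checkpoint, and *E2f2* were also highest outside neuroblasts, with no interval apart from that of the next class.

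**Figure D1:**
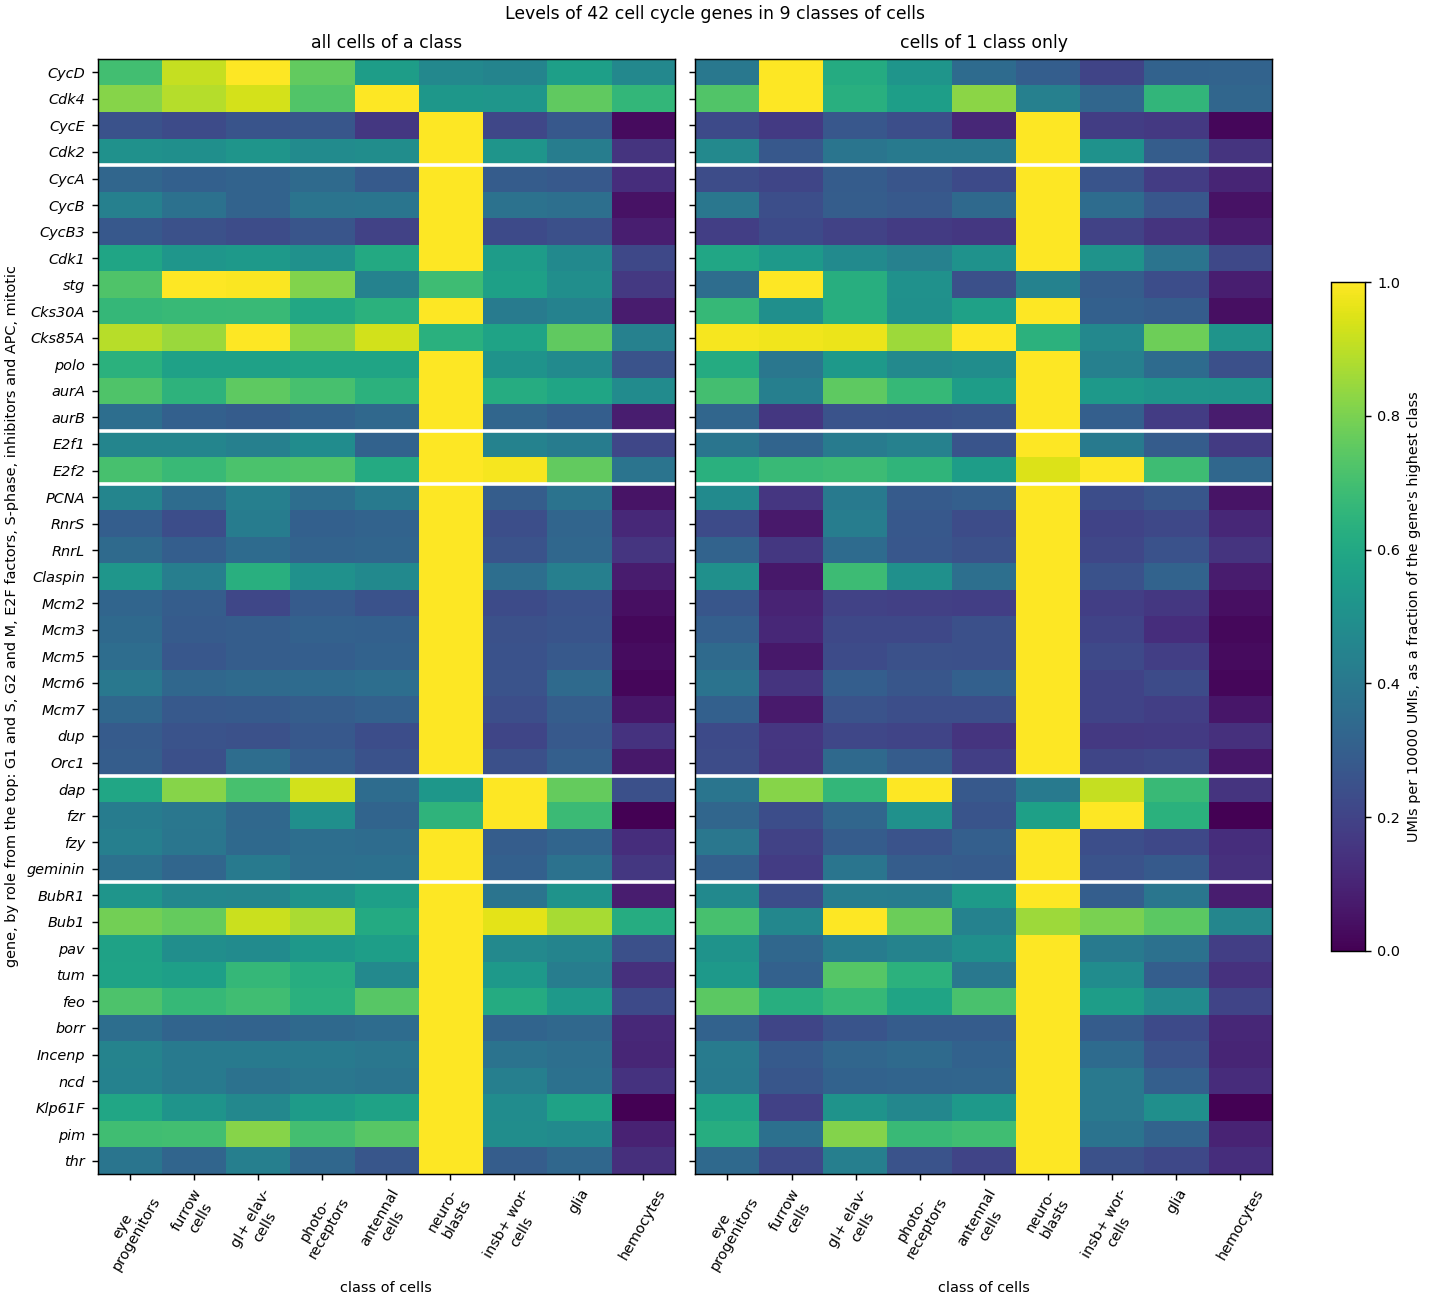
Each row is 1 of the 42 members and each column a class; the colour gives the level (UMIs per 10000 UMIs) as a fraction of the member's highest class, for all cells of a class on the left and for cells of 1 class only on the right. The neuroblast column is at or near 1 for most rows, while *CycD*, *Cdk4*, *stg*, *dap* and *fzr* peak in other columns.

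Neuroblasts, the dividing stem cells of the brain, were first set against eye progenitors, the class gated by *Optix* and *eya*. After the shared cells had been left out, 1526 neuroblasts and 1680 eye progenitors remained. Of the 42 members, 25 were at least 2-fold higher in neuroblasts and 0 were at least 2-fold lower, where 9.12% of the 9972 features tested were higher and 17.8% lower by the same rule. The median ratio of the members was 1.38 on the log2 scale, against 0.04 over all features. In cells of 1 class only, 24 members were higher and 0 lower, where 8.37% of 9056 features were higher and 14.9% lower.

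The largest ratios of this comparison belonged to *CycE*, mitotic cyclins and genes of DNA replication. *CycE* had 4.64 UMIs per 10000 in neuroblasts and 0.859 in eye progenitors, a ratio of 5.40 (95% interval 5.19 to 5.62). *E2f1* had 8.74 and 3.37, a ratio of 2.59 (2.53 to 2.65). The 11 S-phase members, which encode the replication clamp, the Mcm helicase, ribonucleotide reductase and origin factors, summed to 21.7 in neuroblasts and 6.54 in eye progenitors, a ratio of 3.32 (3.27 to 3.37), and all 11 passed 2-fold. *RnrS*, the small subunit of ribonucleotide reductase, had a ratio of 4.52 (4.31 to 4.74), and *PCNA*, the sliding clamp, 2.63 (2.56 to 2.70). The 11 mitotic members summed to 10.4 and 4.60, a ratio of 2.27 (2.23 to 2.31). *Incenp*, the scaffold of the chromosomal passenger complex, had 2.34 in neuroblasts and 0.869 in eye progenitors, a ratio of 2.69. Among members with few UMIs, the origin gene *Orc1* had 0.401 and 0.0876 (ratio 4.57, 4.04 to 5.19), the separase gene *thr* 0.186 and 0.0583 (3.20, 2.72 to 3.77), *aurA*, a kinase of the centrosome, 0.290 and 0.194 (1.49, 1.35 to 1.65) and *E2f2* 0.497 and 0.327 (1.52, 1.41 to 1.64) in the same order of classes.

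The G1 pair *CycD* and *Cdk4* ran the other way. *CycD* had 0.293 UMIs per 10000 in neuroblasts and 0.468 in eye progenitors, a ratio of 0.625 (0.575 to 0.680), and *Cdk4* had 0.168 and 0.290, a ratio of 0.581 (0.520 to 0.648). *Cks85A* had a ratio of 0.657 (0.599 to 0.720), while *Cks30A*, the other subunit of this kind, had 1.64 (1.56 to 1.72). *stg* was nearly level, with 3.76 in neuroblasts and 3.96 in eye progenitors, and its ratio was 0.95 (0.926 to 0.974) in these cells and 1.24 (1.20 to 1.29) in cells of 1 class only. The ratio of *dap* was 0.871 (0.837 to 0.905) in all cells and 1.07 (1.01 to 1.13) in cells of 1 class only.

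Cell cycle genes that were not among the 42 gave a similar split. Of 31 further S-phase genes, 28 were at least 2-fold higher in neuroblasts and 0 lower, and of 39 further mitotic genes 24 were higher and 0 lower. Of 13 further regulators, 1 was higher and 0 were lower, and their summed level was 12.6 in neuroblasts and 13.5 in eye progenitors. The highest ratios among these genes were those of *cid*, the centromeric histone (4.94, 4.19 to 5.84), and *Orc2*, a subunit of the origin recognition complex (4.34, 3.75 to 5.03). The lowest were those of *CycG* (0.701) and *ago*, an F-box protein that targets Cyclin E for destruction (0.727).

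**Figure D2:**
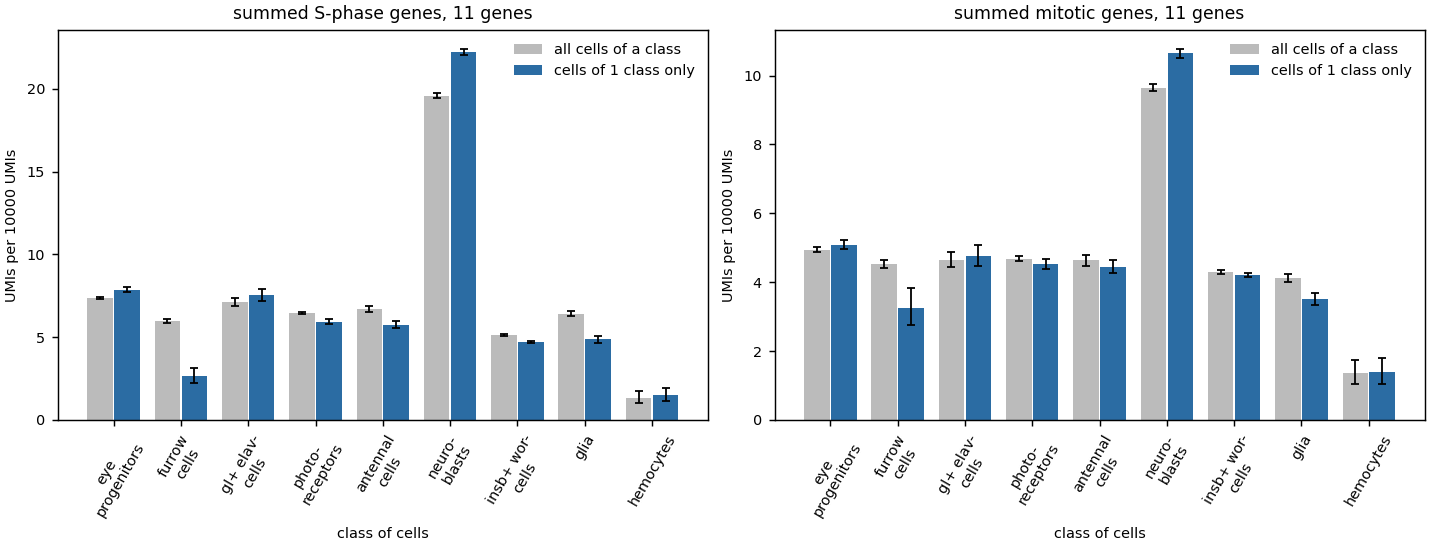
Bars give the summed level (UMIs per 10000 UMIs) of the 11 S-phase members and of the 11 mitotic members in each class, for all cells of a class (grey) and for cells of 1 class only (blue), with exact Poisson 95% intervals. Neuroblasts stand above all other classes in both panels, and the S-phase bar of furrow cells is at 2.65 for cells of 1 class only, against 5.98 for all cells.

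The *insb*-positive *wor*-negative cells were set against neuroblasts to follow the members from the stem cell to its progeny. Of the 42 members, 28 were at least 2-fold lower in *insb*-positive cells and 0 were at least 2-fold higher, where 4.90% of 10605 features were lower and 19.7% higher. The members' median log2 ratio was -1.38, while the median over all features was 0.16. The S-phase members summed to 5.16 UMIs per 10000 in *insb*-positive cells and 19.6 in neuroblasts, a ratio of 0.263 (0.260 to 0.267), and the mitotic members to 4.29 and 9.64, a ratio of 0.445 (0.438 to 0.453). *CycE* had 0.866 in *insb*-positive cells and 4.04 in neuroblasts (ratio 0.214), *PCNA* 1.66 and 5.61 (0.295), and *Incenp* 0.819 and 2.14 (0.382). The ratios of *E2f1* (0.444), *Orc1* (0.245), *thr* (0.294) and *aurA* (0.618) were also under 1, with intervals that left out 1.

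Only *dap* and *fzr* were higher in *insb*-positive cells than in neuroblasts, among the 42 in all cells of these classes. *dap* had 2.86 UMIs per 10000 in *insb*-positive cells and 1.51 in neuroblasts, a ratio of 1.90 (1.84 to 1.96), and *fzr*, the APC activator of G1 (Cdh1), 0.426 and 0.277, a ratio of 1.54 (1.43 to 1.66). In cells of 1 class only the ratio of *dap* was 2.21, and *E2f2* joined them at 1.06 with an interval that held 1 (0.981 to 1.14). *fzy*, the APC activator of mitosis (Cdc20), went with the mitotic genes at 0.296. *stg* was nearer to level than most, with 3.04 in *insb*-positive cells and 3.70 in neuroblasts, a ratio of 0.823 (0.804 to 0.843). *CycD* and *Cdk4*, already low in neuroblasts, had ratios of 0.965 (0.891 to 1.05) and 0.992 (0.896 to 1.10). Of the further genes, 31 of 31 S-phase genes, 14 of 39 mitotic genes and 1 of 13 regulators were at least 2-fold lower in *insb*-positive cells, and 0 of any list were higher. *cid* (0.196) and *Mcm10*, a replication initiation factor (0.214), were lowest, and *Cdc27*, an APC subunit (1.03), and *CycG* (1.22) were highest.

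**Figure D3:**
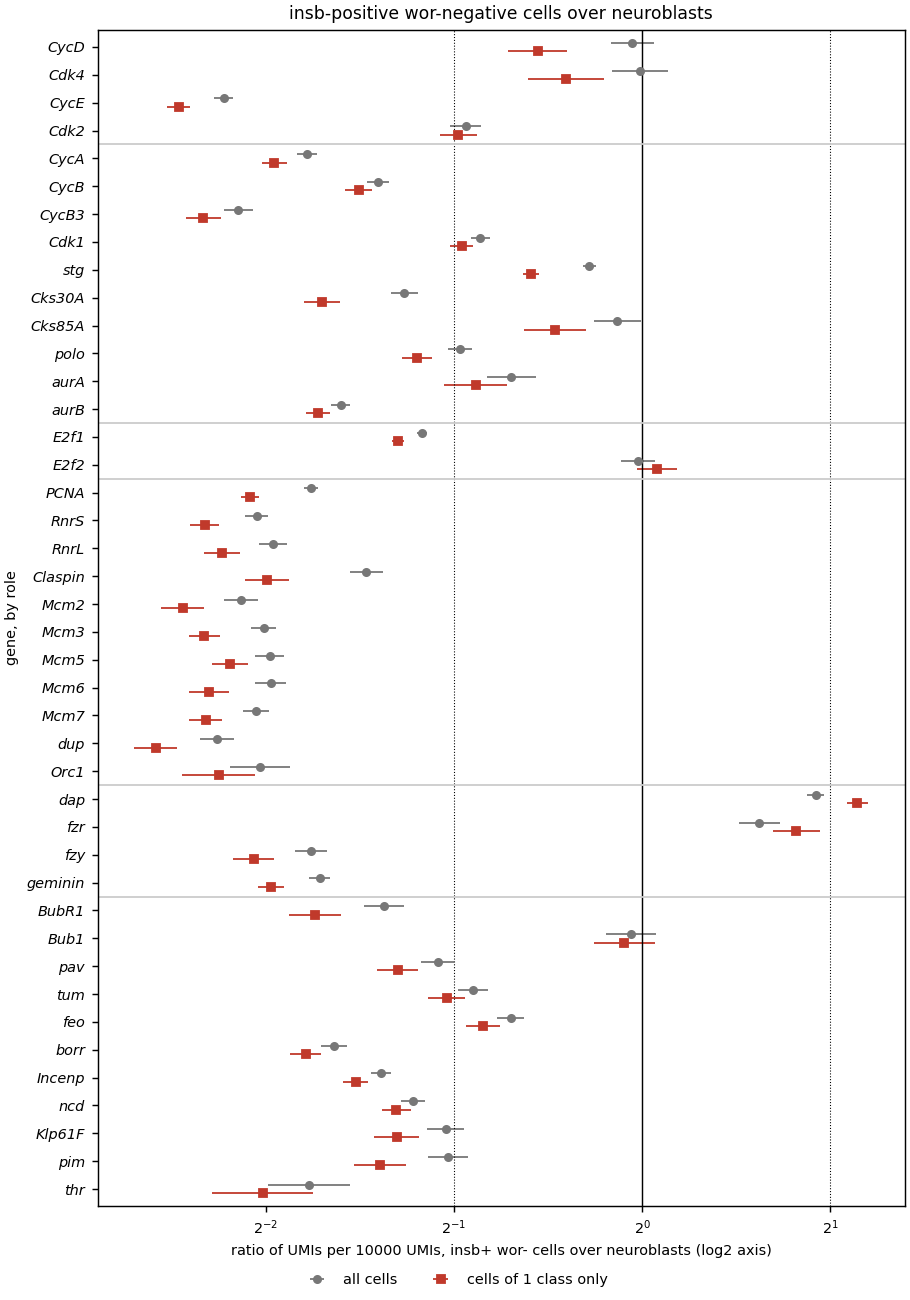
Points give the ratio of levels (log2 axis) of each member in *insb*-positive *wor*-negative cells over neuroblasts, with exact 95% intervals, for all cells (grey circles) and cells of 1 class only (red squares); dotted lines mark 2-fold. S-phase genes lie left of 0.5, while *dap* and *fzr* lie right of 1, at 1.90 and 1.54 in all cells.

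Neurons, which no longer divide, gave a background for these values. They were taken as cells with *nSyb* and *brp*, 2 genes of synaptic vesicle release, a class added after the data had been seen. In the 4768 of them that were in none of the 9 classes, the S-phase members summed to 1.97 UMIs per 10000 and the mitotic members to 1.85. Over all 6250 of them these levels were 4.37 and 3.14. The *E2f1* level was 4.12 in these neurons, above its level in eye progenitors (3.45) and antennal cells (2.32) of 1 class only, and below that in neuroblasts (8.92). When every cell was thinned to 3000 UMIs (1618 neuroblasts and 4864 of all 6250 neurons), *E2f1* was found in 79.5% of neuroblasts (unthinned 95.3%) and 68.2% of neurons (unthinned 83.6%), whereas *PCNA* was found in 65.2% of neuroblasts (unthinned 85.3%) and 14.2% of neurons (unthinned 24.2%). Before thinning, neuroblasts had a median of 14091 UMIs and neurons 5606. *E2f1* (3R, 21620304 to 21660871, minus strand, build BDGP6.54) overlaps *mir-11* and *mir-998* on its own strand in the annotation, and UMIs of these could not be told apart from its own. *Cdk2* was the only other member with such an overlap.

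The furrow cells were compared with eye progenitors, since progenitors arrest in the furrow. With shared cells left out, 168 furrow cells and 1549 eye progenitors remained, and 1 of 42 members, *dap*, was at least 2-fold higher and 0 were lower (4.34% of 9219 features were higher and 6.73% lower). In cells of 1 class only, 52 furrow cells against 858 eye progenitors, 3 members were at least 2-fold higher and 11 at least 2-fold lower, where 6.92% of 7909 features were higher and 14.4% lower. The median log2 ratio of the members was -0.21 in the larger set and -0.63 in the smaller, against 0.00 and -0.05 over all features.

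Summed S-phase genes were lower in furrow cells in both sets. The S-phase members summed to 5.13 UMIs per 10000 in furrow cells and 7.75 in eye progenitors, a ratio of 0.663 (0.626 to 0.701), and in cells of 1 class only to 2.65 and 7.86, a ratio of 0.338 (0.281 to 0.402). Among cells of 1 class only *PCNA* had 0.989 in furrow cells and 2.99 in eye progenitors (ratio 0.330, 0.242 to 0.440), *RnrS* 0.189 and 0.622 (0.304), *Mcm5* 0.105 and 0.566 (0.186, 0.0602 to 0.436), and *Claspin*, a mediator of the replication checkpoint, 0.0631 and 0.503 (0.125, 0.0258 to 0.368). The *Claspin* and *Mcm5* values rest on 3 and 5 UMIs in furrow cells. The other members past 2-fold in this direction were *Mcm2*, *Mcm3*, *Mcm6*, *Mcm7*, the mitotic kinase gene *aurB*, the checkpoint gene *BubR1* and the spindle motor gene *Klp61F*, of which the interval of *BubR1* held 1. Of the 31 further S-phase genes, 18 were at least 2-fold lower in furrow cells of 1 class only, as were 9 of 39 mitotic genes and 1 of 13 regulators, and 0 were higher. Of these further genes, 7 had 0 UMIs in the 52 furrow cells, and the highest ratios, those of *Myb* (1.92, 0.222 to 7.66) and the APC subunit gene *Cdc16* (1.62, 0.728 to 3.17), had intervals that held 1.

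Against this, *stg*, *CycD* and *dap* were higher in furrow cells. In all cells, the share of members at least 2-fold higher was no larger than that of all features. In cells of 1 class only it was near that of all features. *stg* had 6.14 UMIs per 10000 in furrow cells and 3.45 in eye progenitors, a ratio of 1.78 (1.69 to 1.88), and 8.54 and 3.06 in cells of 1 class only, a ratio of 2.80 (2.52 to 3.10). *CycD* had ratios of 1.90 (1.62 to 2.20) and 2.49 (1.79 to 3.38) in the same sets, and *dap* 2.46 (2.30 to 2.64) and 2.12 (1.76 to 2.53). *CycE* gave no stable direction, with a ratio of 1.40 (1.26 to 1.56) in the larger set and 0.753 (0.531 to 1.04) in the smaller. *E2f1* was at 1.03 (0.962 to 1.10) and 0.835 (0.699 to 0.990), and *Incenp* at 0.880 (0.763 to 1.01) and 0.676 (0.460 to 0.959). *Orc1*, *thr* and *aurA* had 6 or fewer UMIs in the smaller set of furrow cells, and their intervals held 1. *stg* lies on 3R (29251826 to 29255800, minus strand), *CycD* on X (15906822 to 15909676, minus strand) and *dap* on 2R (9712321 to 9716256, plus strand).

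**Figure D4:**
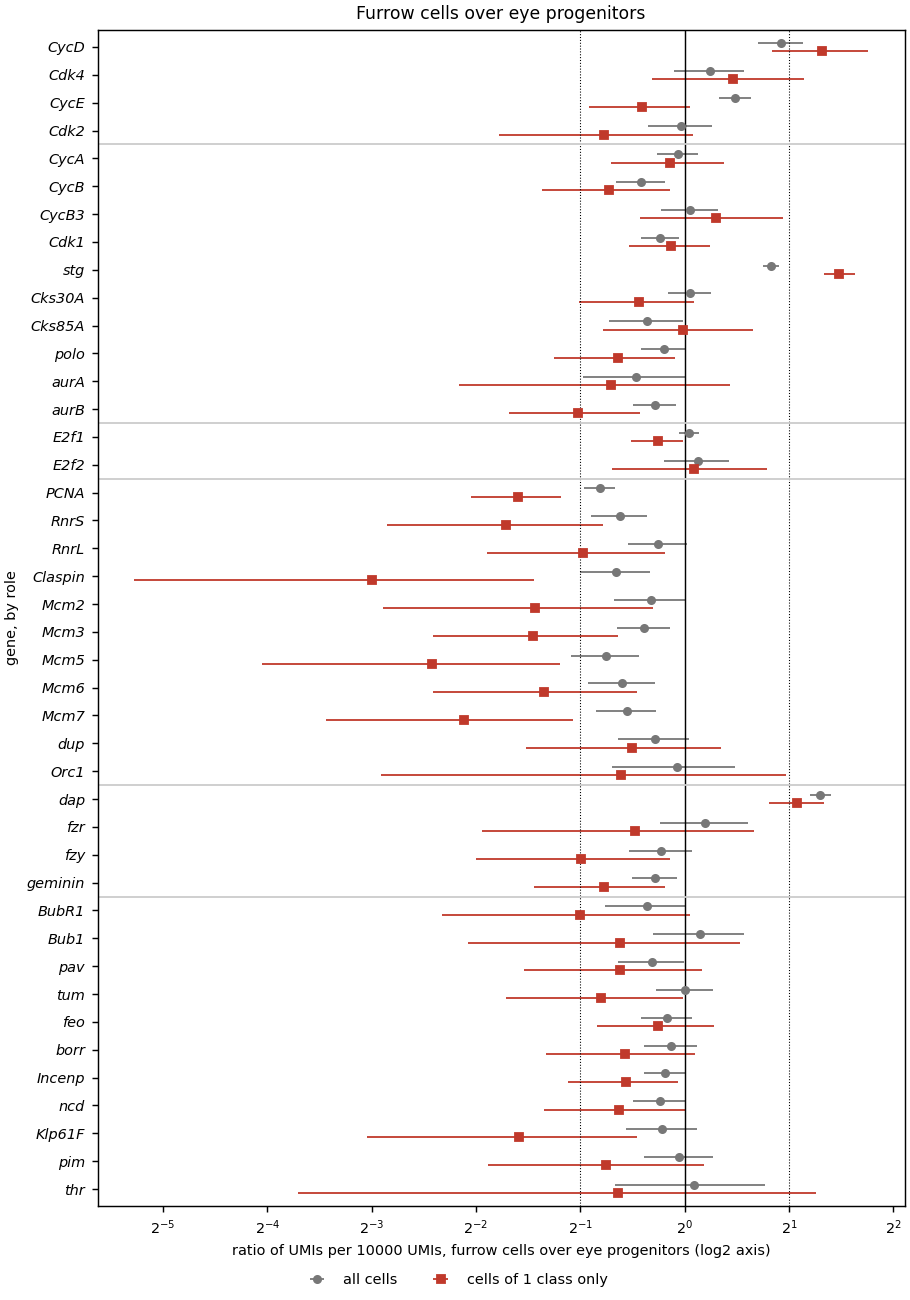
Points give the ratio of levels (log2 axis) of each member in furrow cells over eye progenitors, with exact 95% intervals, for all cells (grey circles, 168 and 1549 cells) and cells of 1 class only (red squares, 52 and 858 cells); dotted lines mark 2-fold. *stg*, *CycD* and *dap* lie to the right in both sets, and most S-phase genes lie to the left, farther so in cells of 1 class only.

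Behind the furrow, *gl*-positive *elav*-negative cells were set against furrow cells. In all cells of these classes 0 of 42 members passed 2-fold in either direction (2.89% of 8230 features were higher and 3.32% lower). In cells of 1 class only, 324 against 52 cells, 13 of the 41 members that passed the filter were at least 2-fold higher and 0 lower (9.41% of 5962 features were higher and 3.57% lower). The S-phase members summed to 7.54 in *gl*-positive *elav*-negative cells and 2.65 in furrow cells of 1 class only, a ratio of 2.84 (2.37 to 3.44), and 7.46 and 6.04 in all cells, a ratio of 1.24 (1.18 to 1.29). *RnrS* had the largest ratio of any member in all cells, with 1.07 in *gl*-positive *elav*-negative cells and 0.566 in furrow cells (1.88, 1.66 to 2.13). Its ratio in cells of 1 class only was 6.09 (3.15 to 13.5), and that of *PCNA* was 2.61 (1.93 to 3.60). The interval of *stg* held 1 in all cells, with 5.17 and 5.31 (ratio 0.974, 0.925 to 1.03), and *stg* was lower in *gl*-positive *elav*-negative cells of 1 class only (ratio 0.625, 0.558 to 0.703). *CycD* had ratios of 1.04 (0.892 to 1.22) and 0.614 (0.433 to 0.886) in these sets, and *dap* 0.848 (0.780 to 0.920) and 0.809 (0.664 to 0.990). Of the further genes that passed the filter in cells of 1 class only, 14 of 27 S-phase genes, 5 of 35 mitotic genes and 0 of 10 regulators were at least 2-fold higher and 0 were lower. Since these ratios share the furrow cells of the comparison before, of which only 52 were in 1 class, they are not independent of it.

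S-phase UMIs were less evenly spread over *gl*-positive *elav*-negative cells than over eye progenitors. Among cells of 1 class only thinned to 3000 UMIs, the variance of their S-phase UMIs over the mean was 6.62 (218 cells), against 2.83 in eye progenitors (808 cells) and 4.05 in neuroblasts (1355 cells). Of these *gl*-positive *elav*-negative cells, 41.3% had no S-phase UMI and 8.72% had 10 or more (95% exact interval 5.33 to 13.3%). In eye progenitors 31.7% had none and 1.49% had 10 or more (0.770 to 2.58%), although the mean was similar, 2.50 UMIs in *gl*-positive *elav*-negative cells and 2.09 in eye progenitors. In neuroblasts 12.8% had none and 21.2% had 10 or more. Photoreceptors also had an uneven spread, with a variance over the mean of 4.77 (679 cells) and 7.71 at 5000 UMIs (565 cells). At 3000 UMIs 50.8% of them had none and 3.09% had 10 or more (1.92 to 4.69%). The limit of 10 UMIs was set after the data had been seen. Thinning left out 106 of the 324 *gl*-positive *elav*-negative cells and 50 of the 858 eye progenitors, and at 5000 UMIs the variance over the mean was 9.05 in 165 *gl*-positive *elav*-negative cells and 4.07 in 730 eye progenitors.

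**Figure D5:**
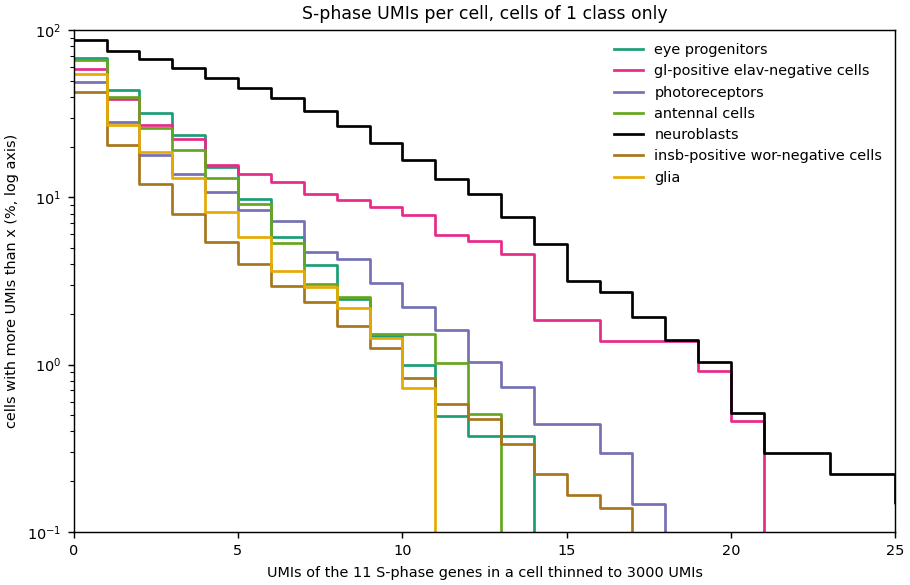
Lines give the percentage of cells (log axis) with more UMIs of the 11 S-phase members than the value on the x axis, in cells of 1 class only thinned to 3000 UMIs, for the 7 classes with enough cells. The *gl*-positive *elav*-negative line starts among the other classes and runs above all but the neuroblasts from 5 UMIs on; 8.72% of its cells had 10 or more, below neuroblasts (21.2%) and above eye progenitors (1.49%).

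Photoreceptors were compared with the *gl*-positive *elav*-negative cells and with eye progenitors. Against the *gl*-positive *elav*-negative cells, 0 of 42 members passed 2-fold in either direction (9.46% of 9592 features were higher and 1.96% lower), and the S-phase members summed to 6.47 in photoreceptors and 7.13 in *gl*-positive *elav*-negative cells, a ratio of 0.907 (0.872 to 0.944). The ratio was 0.788 (0.744 to 0.835) in cells of 1 class only. *dap* and *fzr* were higher in photoreceptors, with ratios of 1.31 (1.22 to 1.41) and 1.48 (1.13 to 1.97), and *PCNA* (0.838, 0.784 to 0.897) and *stg* (0.816, 0.779 to 0.854) were lower. The markers of ganglion mother cells and newborn neurons summed to 16.9 in photoreceptors, against 3.88 in *gl*-positive *elav*-negative cells and 12.3 in eye progenitors, and in cells of 1 class only to 30.4, against 4.43 and 18.6. The part of such cells in the *dap* and *fzr* values was not tested. Against eye progenitors, 1 member, *dap*, was at least 2-fold higher and 0 were lower (8.34% of 9432 features were higher and 1.46% lower). It had 3.43 in photoreceptors and 1.36 in eye progenitors, a ratio of 2.53 (2.42 to 2.64), and 2.58 in cells of 1 class only. *fzr* had a ratio of 1.45 (1.27 to 1.66), *stg* 1.25 (1.21 to 1.29) and *PCNA* 0.662 (0.634 to 0.691), where the median log2 ratio of all features was 0.12. Against eye progenitors 0 of the 83 further genes passed 2-fold. The S-phase members summed to 5.94 in photoreceptors of 1 class only, against 1.97 in neurons of none of the 9 classes and 4.37 in all neurons, and 25.4% of these photoreceptors were called as doublets. The part of such droplets in the photoreceptor values was not tested.

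In antennal cells 0 of 42 members were past 2-fold from eye progenitors (5.43% of 9677 features were higher and 6.85% lower), and 35 of 42 ratios were under 1. *stg* had 2.19 in antennal cells and 3.88 in eye progenitors (ratio 0.563, 0.533 to 0.595), *dap* 0.966 and 1.71 (0.566, 0.520 to 0.615), *CycE* 0.662 and 1.03 (0.644, 0.581 to 0.713) and *E2f1* 2.47 and 3.63 (0.681, 0.646 to 0.717). *RnrS* (1.05, 0.945 to 1.15) and *Cdk1* (0.998, 0.923 to 1.08) had intervals that held 1. In glia, too, 0 members passed 2-fold (10.1% of 9758 features were higher and 7.60% lower). *fzr* (1.84, 1.60 to 2.12) and *dap* (1.37, 1.30 to 1.44) were higher in glia and *PCNA* (0.850, 0.809 to 0.893) lower. Within cells of 1 class only, *Cks30A* (0.434) and *Mcm3* (0.432) were at least 2-fold lower in glia, 2 of 42 members where 5.50% of 8449 features were lower and 10.7% higher, so that the members' share was near that of all features. Those glia also had 33.4 UMIs per 10000 of the markers of ganglion mother cells and newborn neurons, against 18.6 in eye progenitors, and the part of such cells in the glial values was not tested.

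Hemocytes, the blood cells (30 cells with 440649 UMIs), had the lowest level of 39 of the 42 members. In cells of 1 class only this number was 35. The share of all features that were lowest in hemocytes was not counted. Of 42 members, 36 were at least 2-fold lower than in eye progenitors and 0 higher (40.0% of 9586 features were lower and 15.2% higher). The S-phase members summed to 1.34 UMIs per 10000 in hemocytes (95% interval 1.02 to 1.73) and 7.36 in eye progenitors, a ratio of 0.182 (0.138 to 0.235), where the median log2 ratio of all features was -0.24. *CycE* had a ratio of 0.112 (0.0362 to 0.260), *PCNA* 0.116 (0.0617 to 0.198) and *E2f1* 0.466 (0.366 to 0.585), whereas the interval of *CycD* held 1 (0.670, 0.356 to 1.15). *fzr* and *Klp61F* had 0 UMIs in hemocytes, which allows a level of up to 0.0681 (3 counts over the class), so they were at least 2.62-fold and 5.15-fold lower there than in eye progenitors. Of the further genes, 27 of 31 S-phase genes, 26 of 39 mitotic genes and 5 of 13 regulators were at least 2-fold lower in hemocytes, while *mars*, which encodes a spindle protein, was at least 2-fold higher in hemocytes (2.33, 1.32 to 3.81), as the single gene among the 83.

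The study set dorsal (*d*) cells with *mirr*, *ara* or *caup* against ventral (*v*) cells without, and the eye progenitors were split in the same way. The 903 *d* cells had a median of 20421 UMIs and the 917 *v* cells 13180. The S-phase members summed to 7.0 in *d* cells and 8.07 in *v* cells, a ratio of 0.868 (0.849 to 0.888), and the mitotic members to 4.85 and 5.13, a ratio of 0.945 (0.919 to 0.971). The S-phase ratio was 0.966 when cells were thinned to 3000 UMIs and 0.966 without cells over 30000 UMIs. In cells of 1 class only, 313 *d* and 545 *v* cells had similar medians of 11921 and 12024 UMIs, and the ratios were 1.01 (0.969 to 1.05) and 1.09 (1.04 to 1.15). Of the 42 members, 23 were on the same side of 1 in both sets. *stg* was higher in *d* cells, with 4.21 in *d* and 3.23 in *v* cells (1.30, 1.26 to 1.35), and 3.63 in *d* and 2.70 in *v* cells of 1 class only (1.34, 1.26 to 1.43). *CycE* was lower in *d* cells, with 0.852 in *d* and 1.34 in *v* cells (0.636, 0.599 to 0.675), and 0.679 in *d* and 1.30 in *v* cells of 1 class only (0.524, 0.461 to 0.595). *dap* changed sides, with 1.12 (1.06 to 1.17) and 0.846 (0.762 to 0.939). Whether the *d* cells are of 1 genotype was not tested.

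Within neuroblasts, members differed in how evenly they were spread over cells. In 1618 cells thinned to 3000 UMIs, the variance over the mean, which is near 1 for counting error alone, was 3.30 for *dap*, 2.60 for *stg*, 2.59 for *CycE*, 2.41 for *E2f1*, 1.78 for *PCNA* and 1.69 for *RnrS*. Mitotic members such as *Incenp* (1.15), *pav* (1.03) and *feo* (1.03) were close to 1. Their means were 0.676, 0.223 and 0.302 UMIs per cell, against 0.705 for *RnrS* to 2.50 for *E2f1* among the members named before. S-phase members with low means were near 1 too, such as *Orc1* (1.03, mean 0.104) and *Mcm6* (1.12, mean 0.283). The sum of the mitotic members had a value of 1.44 and that of the S-phase members 4.04. The part of the mean in these values was not tested. The S-phase and mitotic sums of a cell were positively correlated, with Pearson's r of 0.41 and Spearman's rho of 0.41 over the 1618 neuroblasts and 0.28 and 0.27 over 1758 eye progenitors, and 2.72% of neuroblasts had a UMI of neither list, against 13.8% of eye progenitors. Over the 861 pairs of members in 1245 neuroblasts of 1 class only, thinned to 5000 UMIs, the median r was 0.069. The highest were *CycE* with *E2f1* (0.45) and *PCNA* with *RnrS* (0.40). The 17 pairs under -0.1 all held *dap*, of which *PCNA* with *dap* (-0.19) was the lowest. The points of these correlations share 1 library, and they are descriptions with no test.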

How the data were processed

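Single cells of brain and eye disc were captured on the 10x platform, 1 sample per genotype label. Per the study's methods and the submitters' processing notes, the authors counted UMIs with Cell Ranger on BDGP6 and used Seurat. The deposited values are natural log values, ln of 1 plus UMIs per 10000 UMIs of the cell. The filters on cells are not given in the sources used here. The log was undone and whole UMIs were recovered (100% of nonzero values within 0.01 of a whole multiple of the lowest value of their cell). All 33552 cells were kept.

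Levels were pooled UMIs per 10000 with exact Poisson 95% intervals, and ratios had exact conditional binomial intervals (numpy 2.4.6, scipy 1.17.1, Python 3.11.15). A gene counted as higher or lower at a ratio of at least 2 or at most 0.5, if both classes together held at least 20 UMIs. The same count over all features is the background. Cells are not replicates, and no test was run. The ratio and its interval were checked on simulated data. Doublets were called with Scrublet in scanpy 1.11.5 and kept. For shares, spread and correlations each cell was thinned to 3000 or 5000 UMIs, and shallower cells were left out.

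The 42 members, the 83 further genes, the gates and the markers were chosen with earlier results of these data known. Values went to the members of each role with the most and fewest UMIs, to members against the direction of their role or of most members, and to the 2 highest and 2 lowest further genes of a comparison. Other members given with values, such as *CycD*, *RnrS*, *Claspin* and *Mcm5*, were chosen after their values were seen. Positions are from the Ensembl annotation of BDGP6.54, which matched all 42. Promoter and protein sequences were not used here. The alternatives were a mean over cells, thinning, shared cells kept, cells of 1 class only and no called doublets. Others were 2 UMIs of at least 1 class gene, no minimum and a minimum of 100 UMIs. Leaving out cells over 30000 UMIs was added after seeing the data.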

Additional observations from a re-analysis of the deposited data

How the results depend on the processing

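No paired analysis was possible because the identical tables give no second library to pair, and no replicate could be left out. The counts of members past 2-fold kept within 1.5 times the main count under all alternatives run for neuroblasts over eye progenitors, *insb*-positive cells over neuroblasts and hemocytes over eye progenitors. For furrow cells over eye progenitors the count of 1 was 6 as a mean over cells, 8 after thinning, 0 with shared cells kept, 14 in cells of 1 class only, 2 without called doublets, 2 at 2 UMIs of a class gene and 6 without cells over 30000 UMIs. Of all features, 11.4% were lower and 5.47% higher as a mean over cells, where 4 and 2 of 42 members were. After thinning 10.5% were lower and 4.54% higher, where 6 and 2 members were. These shares of members were near those of all features. Without called doublets 8.22% of features were lower and 4.60% higher, where 0 and 2 members were. At 2 UMIs 7.34% were lower and 4.64% higher, where 1 and 1 members were. Without cells over 30000 UMIs 7.47% were lower and 4.69% higher, where 5 and 1 members were. For *gl*-positive *elav*-negative cells over furrow cells the count of 0 was 5 as a mean over cells, 3 after thinning, 13 in cells of 1 class only, 1 at 2 UMIs and 3 without cells over 30000 UMIs, all higher, where 7.85%, 3.43%, 9.41%, 2.99% and 3.49% of all features were higher in this order. For photoreceptors over *gl*-positive *elav*-negative cells the count was 1 as a mean over cells and 1 after thinning. Of all features, 11.4% and 10.7% were higher and 5.20% and 1.77% lower in this order. For photoreceptors over eye progenitors it was 0 in place of 1 with shared cells kept (1.79% of features higher, 0.486% lower). For antennal cells over eye progenitors it was 1 after thinning and 1 at 2 UMIs. There 4.03% and 5.01% of features were higher and 7.26% and 9.96% lower. For glia over eye progenitors it was 4 as a mean over cells, 2 higher and 2 lower (12.6% and 9.82% of features). It was 2 after thinning and 2 in cells of 1 class only, all lower, where 6.94% and 5.50% of features were lower. It was 1 without doublets and 1 at 2 UMIs, each higher, where 11.9% and 10.8% of features were higher. Without cells over 30000 UMIs it was 1, lower, where 6.5% of features were lower. For glia, no share of members was larger than that of all features in the same direction.

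Of the alternative values of single ratios and sums, 290 were counted as moved, 237 as the same and 9 as reversed. In cells of 1 class only, the S-phase ratio left its main 95% interval in every comparison of classes but hemocytes over eye progenitors. It was 0.188 there (main interval 0.138 to 0.235), and 2.83 for neuroblasts over eye progenitors (main interval 3.27 to 3.37). Some single ratios changed sides of 1. For furrow cells over eye progenitors *CycE* was 0.902 with shared cells kept and 0.753 in cells of 1 class only. For neuroblasts over eye progenitors *stg* was 1.24 in cells of 1 class only, and *dap* was 1.46 as a mean over cells, 1.34 after thinning, 1.07 in cells of 1 class only and 1.17 without cells over 30000 UMIs. For *d* over *v* eye progenitors the sums were 1.01 (S-phase) and 1.09 (mitotic) in cells of 1 class only. The cause was not tested. With no replicate and an unknown genotype, no value carries an error between animals, and furrow cells of 1 class only rest on 52 cells and 475184 UMIs.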
